A study of Mus musculus with 10 samples.

Results

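The nuclear genes of oxidative phosphorylation were read on expression arrays of a mouse model of acute T lymphoblastic leukemia (T-ALL) with and without deletion of CnB1. Members were all genes whose symbol in the array's annotation starts with Ndufa, Ndufb, Ndufc, Ndufs, Ndufv, Sdh, Uqcr, Cox4 to Cox8 or Atp5. Of 18193 genes that a probe set names alone, 94 met this rule, and 92 of them were among the 12735 genes bright enough to test. Complex I had 34 members (33 tested), complex II 4, complex III 8, complex IV 19 (18 tested), complex V 17, and the assembly factors Ndufaf1 to Ndufaf8 and Sdhaf1 to Sdhaf4 made up the other 12. The members not tested, Ndufb4 and Cox7b2, had a mean below the limit of 4.59 log2 units that was set for dim genes. Ndufb4 had 1 probe set annotated to it alone, so its low value does not show that the gene is silent. Ndufa11 and Ndufs6, also of complex I, were named only by probe sets shared with another symbol and are not among the members. Each gene is represented by 1 probe set, the one with the highest mean among those annotated to it alone.

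The leukemias were induced by ICN1, the active intracellular part of NOTCH1, and all of them, the controls included, carried the ROSCreERT2 transgene and floxed CnB1 alleles. CnB1, now called Ppp3r1, encodes the regulatory subunit of calcineurin, the calcium-dependent phosphatase that activates the NFAT factors. Leukemic secondary recipient mice received tamoxifen, which deletes CnB1 (TAM, 5 arrays), or corn oil, the carrier (OIL, 5 arrays), so that an effect of the deletion and one of the drug cannot be told apart. Leukemic cells, over 50% of the marrow, were flow-sorted by GFP or a like marker. Each group holds the labels 204, 206, F3, F3.1 and F3.2. The labels state neither what these stand for nor that each array is a separate mouse, so the p-values speak of the spread among these arrays, which may be partly technical. The age of the mice is not given in the labels.

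As a check of the labels, the dimmer Ppp3r1 probe set read 5.32 ± 0.58 in OIL and 3.26 ± 0.21 in TAM (SD, n = 5 each), with every TAM array below every OIL array (two-sided exact permutation p = 0.00794, the smallest this design allows). The brighter one read 9.80 ± 0.09 and 9.67 ± 0.04 (exact permutation p = 0.0238). Their positions against the deleted exons were not looked up. Of 7 measured T-ALL markers, all were bright enough to test, and their summed linear signal lay between 28230 and 32592 in OIL and between 29057 and 33870 in TAM. Of these markers, 4 were higher and 3 lower in TAM, with a median difference of 0.14. Among them Cd2, a T cell adhesion receptor, differed by -1.0 and was called with the block (limma adjusted p = 0.0271) but not without it (0.0588). Cd3e, part of the T cell receptor complex, differed by 0.33 (adjusted p = 0.348). The sum of 10 granulocyte and monocyte markers ranged from 341 to 1543 in OIL and from 498 to 2857 in TAM, with TAM F3 highest. Stroma markers summed to 691 in OIL 206 and 1273 in TAM 206, against 88.2 to 156 in the other 8 arrays. Of 5 B cell markers measured, 1 was bright enough to test, as were 3 of 5 erythroid and 3 of 3 megakaryocyte markers. In such a bulk sample, fewer cells of a type and less RNA per cell cannot be told apart.

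Oxidative phosphorylation is the chain of inner mitochondrial membrane complexes that turns reducing power into ATP. Complex I takes electrons from NADH and complex II from succinate, both pass them to ubiquinone, complex III hands them on to cytochrome c, and complex IV reduces oxygen. The proton gradient that complexes I, III and IV build drives complex V, the ATP synthase. Most subunits are encoded in the nucleus and are transcribed under factors that include NRF1, the ETS factor GABP and YY1, whereas a few are encoded in mitochondrial DNA. T cells raise mitochondrial respiration when activated, and calcineurin is an early step of that activation.

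The members' promoters were read to show which letters these genes have in common beyond their names. RefSeq's promoter windows (GRCm38.p6, from 250 bases before to 50 after each gene's start) were found for 78 of the 94 members. Both strands were searched for GCGCNNGCGC, an NRF1-type motif, CCGGAAG, an ETS-type motif, and AAGATGG, a YY1-type motif. The last 3 letters of the ETS-type motif are the first 3 of the YY1-type one, so matches of these can overlap. At least 1 of them was found for 47 of the 78 members with a window (60.3%), against 35.6% of the tested genes with a window and 21.5% of all 27025 genes with one. A gene with more than 1 window counted once, with a match in any of them. The NRF1-type motif was found for 26.9% of members with a window, 14.2% of such tested genes and 7.0% of all such genes. For the ETS-type motif the shares were 28.2%, 19.0% and 9.93%, and for the YY1-type motif 14.1%, 8.35% and 7.28%. By complex, genes with any of these were 17 of 31 for complex I, 3 of 3 for complex II and 3 of 5 for complex III. For complex IV they were 4 of 13, for complex V 12 of 15 and for assembly factors 8 of 11. All 4 windows found for the tissue forms of complex IV lacked them. These are matches of letters, not measured binding sites.

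The 250 bases before the start are shown for 3 members that were lower in TAM in every pair of arrays with the same label: Ndufv2 (chr17:66101560-66101809, minus strand), a core subunit of complex I, Uqcr11 (chr10:80406822-80407071, minus strand), a small subunit of complex III, and Cox7a2l (chr17:83514334-83514583, minus strand), the factor with the largest negative difference. Sequences run 5′ to 3′ toward the start, and capitals mark the motif letters.
Ndufv2: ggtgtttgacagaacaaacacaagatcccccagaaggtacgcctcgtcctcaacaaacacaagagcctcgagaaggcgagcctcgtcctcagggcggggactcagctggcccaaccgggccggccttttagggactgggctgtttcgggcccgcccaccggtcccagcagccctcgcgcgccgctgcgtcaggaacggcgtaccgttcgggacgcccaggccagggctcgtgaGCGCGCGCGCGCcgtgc
Uqcr11: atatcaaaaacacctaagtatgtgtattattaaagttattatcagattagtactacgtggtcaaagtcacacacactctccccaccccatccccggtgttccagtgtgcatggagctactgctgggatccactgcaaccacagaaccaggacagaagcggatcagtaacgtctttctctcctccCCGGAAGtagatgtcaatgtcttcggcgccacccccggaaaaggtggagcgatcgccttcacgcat
Cox7a2l: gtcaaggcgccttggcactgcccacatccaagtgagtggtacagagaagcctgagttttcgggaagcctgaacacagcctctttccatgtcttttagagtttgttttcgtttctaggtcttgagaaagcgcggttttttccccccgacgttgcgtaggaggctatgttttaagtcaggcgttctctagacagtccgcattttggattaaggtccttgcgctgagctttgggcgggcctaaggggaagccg
The Ndufv2 window holds overlapping NRF1-type matches close to the start, the Uqcr11 window an ETS-type match, and the Cox7a2l window none of the 3 motifs.

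The first comparison asked which of these transcripts differed between TAM and OIL leukemias, in log2 units, where positive means higher in TAM. No member passed an adjusted p of 0.05 in limma, while 60 of all 12735 genes tested did (0.471%). With the label as a block, again no member passed, and 431 genes did (3.38%). With the label as a random term, 728 genes passed (5.72%), among them the members Cox7a2l (adjusted p = 0.0317) and Ndufs3 (adjusted p = 0.0495), both lower in TAM. At an unadjusted p under 0.05, 9 members passed without the block, 8 lower and 1 higher, where 13% of all genes did. With the block it was 12 members, 11 lower and 1 higher, against 22.4% of genes. Of all 12735 genes, 987 were lower and 670 higher at this threshold without the block, and 1655 and 1193 with it. Over both directions together, the members' shares were thus below those of all genes. For the lower direction alone, the members' share was not below that of all genes without the block, and was below it with the block.

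The members differed by little, and mostly in 1 direction. TAM was the lower group for 72 of the 92 (78.3%) against 59% of all genes tested, and the median difference was -0.05 for the members and -0.03 for all genes. Among genes with a mean over 9 log2 units, where 73 members lie, 60 of 73 members and 1614 of all 3056 genes were lower, with medians of -0.06 and -0.01. In every one of the 5 label pairs, TAM was lower for 27 members (all genes 13.5%) and higher for none (all genes 8.4%). All TAM arrays lay below all OIL arrays for 2 members, Ndufs3 and Atp5mpl (all genes 1.99%). The directions shared by many members come from the same 10 RNA samples and are not independent of each other. The 5 pairs may not be separate units either. OIL F3.2 resembled OIL F3.1 (correlation 0.997) more than its own TAM partner (0.983). No other 2 arrays differed by so small an SD (0.19). When this OIL pair was averaged into 1 array, 84.8% of members and 58.6% of all genes were lower, and 10 genes passed the adjusted threshold in place of 60. Weighting arrays by their quality, which gave OIL F3.1 the most weight (2.13) and OIL F3 the least (0.60), left 64.1% of members and 57.7% of all genes lower. Leaving out both F3.2 arrays, whose pairing is the least supported, left 71.7% of members and 56.0% of all genes lower.

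The members were also measured with little spread, which bounds how large a difference in array signal could have been. The residual SD had a median of 0.10 over members and 0.17 over all genes tested. Among genes with a mean over 9 log2 units, it was 0.09 for members and 0.15 for all genes. The 95% interval of the difference lay within 0.25 log2 units of 0 for 53 members (57.6%), against 20.7% of all genes and 30.3% of genes with a mean over 9. It lay within 0.5 units for 87 members (94.6%) and within 1 unit for 91 (98.9%). For complex V, 14 of 17 intervals lay within 0.25 units, as did 20 of 33 for complex I, 6 of 8 for complex III, 10 of 18 for complex IV, 1 of 4 for complex II and 2 of 12 for assembly factors. The intervals are those of single genes and are not adjusted for their number.

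**Figure D1:**
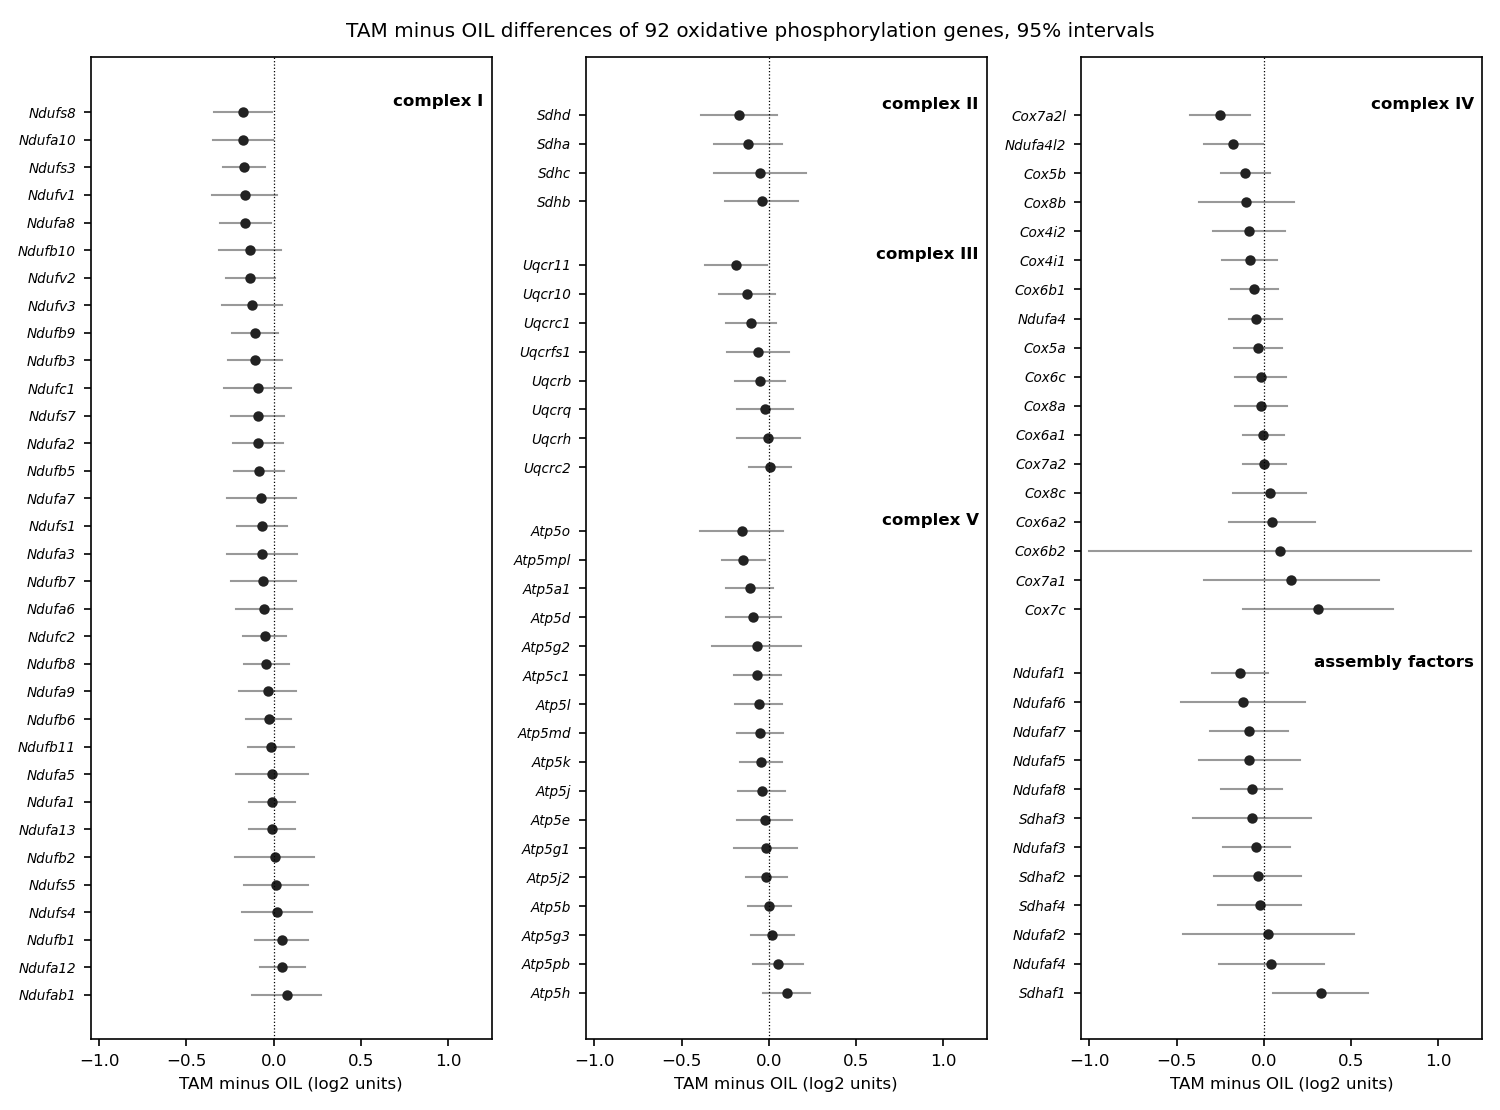
TAM minus OIL difference (x axis, log2 units) of each of the 92 tested members, sorted within complex I to V and the assembly factors; points are limma estimates over 5 arrays per group and lines their 95% intervals. Most points lie just left of 0, with Cox7a2l at -0.25 and Sdhaf1 at 0.33 the farthest of those whose interval leaves out 0, while Cox6b2 has the widest interval, from -1.0 to 1.18.

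Complex I, the NADH dehydrogenase, had 27 of 33 tested members lower in TAM, 16 of them in every pair, with a median difference of -0.07. Its core subunits carry the flavin and iron-sulfur clusters and are the part conserved down to bacteria. All 6 core members tested (Ndufs1, Ndufs3, Ndufs7, Ndufs8, Ndufv1 and Ndufv2) were lower, by a median difference of -0.15, and 5 of them in every pair. Among the 27 accessory subunits, 21 were lower, 11 in every pair, with a median of -0.05. No core or accessory member passed limma's adjusted threshold in the fits without or with the block.

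Ndufs3, a core subunit of the peripheral arm, read 10.91, 10.92, 10.90, 10.96 and 11.04 in the OIL arrays 204, 206, F3, F3.1 and F3.2. In the TAM arrays, in the same order of labels, it read 10.78, 10.75, 10.81, 10.80 and 10.75. The groups did not overlap, and the highest TAM array, F3, still lay 0.09 below its OIL partner, the smallest of the 5 paired differences. The difference was -0.17 (95% interval -0.29 to -0.05), which is 11.1% less signal on the linear scale. Its limma adjusted p was 0.227 without and 0.147 with the block, and it passed only in the fit with a random label term given above.

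Ndufs8, which binds iron-sulfur clusters next to the membrane arm, read 11.67, 11.76, 11.82, 11.97 and 12.01 in OIL 204, 206, F3, F3.1 and F3.2 and 11.65, 11.61, 11.71, 11.68 and 11.71 in the TAM arrays. The OIL arrays F3.1 and F3.2 were the highest, OIL 204 fell within the TAM range, and the paired differences ran from -0.30 to -0.02. The group difference was -0.18 (95% interval -0.34 to -0.01, adjusted p = 0.358). All 6 probe sets of Ndufs8 gave lower TAM means, from -0.22 to -0.14.

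Ndufv1, the subunit that binds NADH and the flavin, read 10.69, 10.65, 10.50, 10.38 and 10.51 in OIL and 10.46, 10.49, 10.44, 10.32 and 10.19 in TAM, labels in the same order. The groups overlapped, and every TAM array was below its partner (difference -0.17, 95% interval -0.35 to 0.02, adjusted p = 0.448). Ndufv2, its neighbour in the NADH module, read 11.88 ± 0.07 in OIL and 11.74 ± 0.07 in TAM (SD, n = 5 each). For Ndufs1, the largest subunit, the means were 9.83 ± 0.07 and 9.77 ± 0.08. Ndufs7 read 10.73 ± 0.11 and 10.64 ± 0.05 and was the 1 core member not lower in every pair. All 16 probe sets of the 6 core genes gave lower TAM means, from -0.22 to -0.07. Probe sets of a gene read the same RNA, so they are repeat readings of these 10 samples and not replicates.

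Among accessory subunits, Ndufa10 had the most negative difference, at -0.17 (95% interval -0.35 to -0.003), with means of 11.45 ± 0.11 in OIL and 11.28 ± 0.11 in TAM. The most positive were Ndufab1, the mitochondrial acyl carrier protein, at 0.07 (95% interval -0.12 to 0.27), and Ndufa12, at 0.05 (95% interval -0.08 to 0.18). Both were higher in 4 of 5 pairs, and their adjusted p values were 0.782 and 0.776. The positive differences of complex I were thus smaller in size than its largest negative ones.

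Complex II, succinate dehydrogenase, also belongs to the tricarboxylic acid cycle. All 4 of its subunits had a lower TAM mean (median -0.08), though only Sdha in every pair. With the mean of all probe sets the median was -0.04. Sdha, the flavoprotein, read 10.70, 10.65, 10.38, 10.39 and 10.46 in the OIL arrays 204, 206, F3, F3.1 and F3.2 and 10.52, 10.49, 10.24, 10.36 and 10.38 in TAM. The labels 204 and 206 were higher than the others in both groups, so that the groups overlapped widely. The difference was -0.12 (95% interval -0.31 to 0.08, adjusted p = 0.632). Another Sdha probe set, with a mean of 10.42, gave 0.05, on the other side of 0. Sdhd, a membrane anchor, differed by -0.17 (95% interval -0.39 to 0.05), Sdhc, the other anchor, by -0.05 and Sdhb, the iron-sulfur subunit, by -0.04.

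Complex III, ubiquinol-cytochrome c reductase, had 7 of 8 members lower (median -0.06), 2 of them, Uqcr10 and Uqcr11, in every pair. Uqcr11, a small subunit at the edge of the complex, read 11.40, 11.45, 11.27, 11.15 and 11.15 in OIL and 11.16, 11.14, 11.15, 10.98 and 11.04 in TAM, labels in the order 204, 206, F3, F3.1 and F3.2. The TAM values of 204, 206 and F3 fell where the OIL values of F3.1 and F3.2 lay, so the groups met although each TAM array lay below its partner. The difference was -0.19 (95% interval -0.36 to -0.01), 12.2% less signal, with a limma adjusted p of 0.355 without and 0.126 with the block. Uqcrc1, a core protein, differed by -0.10 and Uqcrfs1, the Rieske iron-sulfur protein that passes on electrons, by -0.06. Uqcr10 differed by -0.13 on its brightest probe set, and by 0.03 as a mean of its 3 probe sets, whose dimmer members read near 7.6 to 7.8. The 1 positive value of the complex was that of Uqcrc2, at 0.01. Its other probe set, with a mean of 11.09, gave -0.12, on the other side of 0.

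Complex IV, cytochrome c oxidase, had 12 of 18 tested members lower and a median of -0.03. Without its tissue forms, 10 of 12 were lower, with a median of -0.04. The differences of its common subunits were small: Cox4i1, the main regulatory subunit, by -0.08 (95% interval -0.24 to 0.07), Cox5a by -0.03 (-0.17 to 0.10) and Cox6a1 by 0.00 (-0.12 to 0.12). Ndufa4, once assigned to complex I, differed by -0.05. Its paralogue Ndufa4l2, a gene known for induction by hypoxia, differed by -0.18 (95% interval -0.34 to -0.01, adjusted p = 0.361) at a mean of only 6.38 in OIL. Cox7c was the most positive member of the complex, at 0.31 (95% interval -0.12 to 0.74). Its OIL values ran from 6.79 to 7.38 and its TAM values from 6.84 to 7.87. The mean of this probe set was 7.17, and the other Cox7c probe set had a mean of 4.63. Both lay far below Cox4i1 (12.42) and Cox6a1 (13.51), so how well they read this common subunit is not known.

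Cox7a2l, a factor that joins complexes III and IV into supercomplexes, had the most negative difference of all members. It read 11.57, 11.38, 11.50, 11.31 and 11.52 in the OIL arrays 204, 206, F3, F3.1 and F3.2. In the TAM arrays it read 11.24, 11.24, 11.33, 11.03 and 11.18. Only TAM F3 reached the OIL range, and it did so next to OIL F3.1, the lowest OIL array. The paired differences ran from -0.33 to -0.14. The group difference was -0.25 (95% interval -0.42 to -0.08), 16.0% less signal, with a limma adjusted p of 0.211 without and 0.0697 with the block. Its other probe sets gave -0.30 and -0.30. Its common relative Cox7a2, the subunit that Cox7a2l resembles, differed by 0.00 (95% interval -0.12 to 0.13).

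Tissue forms of complex IV replace common subunits in heart, muscle, lung or testis. The group means of the 6 tested ran from 4.88 for Cox8b in TAM to 7.41 for Cox8c in TAM, low on a scale on which the values reached 14.02. Cox4i2, the lung form, differed by -0.08, Cox6a2, the heart and muscle form, by 0.04, Cox8b by -0.10 and Cox8c by 0.03. Cox7a1, the heart and muscle form beside Cox7a2, differed by 0.16 (95% interval -0.35 to 0.66). For Cox6b2, the testis form beside Cox6b1, the difference was 0.09 (95% interval -1.0 to 1.18), and for Cox6b1 it was -0.06 (95% interval -0.19 to 0.08).

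**Figure D2:**
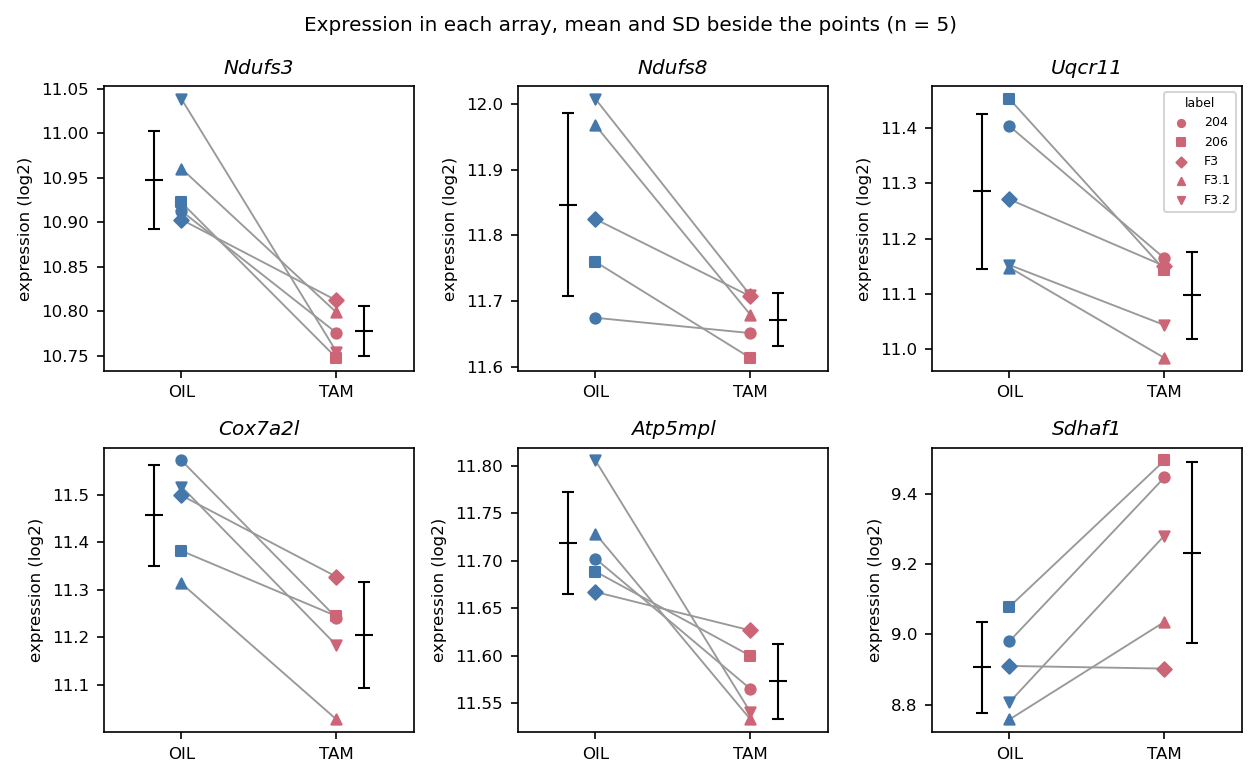
Expression (y axis, log2) of Ndufs3, Ndufs8, Uqcr11, Cox7a2l, Atp5mpl and Sdhaf1 in every array, with a line joining the OIL and TAM arrays of a label and group means ± SD (n = 5) beside the points. All lines go down for the first 5 genes, with the groups apart for Ndufs3 and Atp5mpl, and 4 of 5 lines go up for Sdhaf1; each panel has its own y range, which starts above 0.

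Complex V, the ATP synthase, makes ATP in its F1 head, driven by a ring of c subunits that the peripheral stalk holds in place. It had 13 of 17 members lower with a median of -0.04. By role, 4 of 5 F1 subunits, 2 of 3 c ring genes, 2 of 4 peripheral stalk subunits and 5 of 5 small membrane subunits were lower. The catalytic subunit Atp5b differed by 0.00 (95% interval -0.12 to 0.13), with OIL values of 12.29 to 12.35 and TAM values of 12.25 to 12.38. Atp5a1, the alpha subunit, differed by -0.11 (95% interval -0.24 to 0.03).

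Atp5mpl, a small membrane subunit, read 11.70, 11.69, 11.67, 11.73 and 11.81 in OIL and 11.57, 11.60, 11.63, 11.53 and 11.54 in TAM, labels in the order 204, 206, F3, F3.1 and F3.2. The groups did not overlap, and the F3 arrays were the closest. The difference was -0.15 (95% interval -0.27 to -0.02), 9.59% less signal, with a limma adjusted p of 0.296. Atp5o, the stalk subunit that gives oligomycin sensitivity, differed by -0.15 (95% interval -0.39 to 0.08). In the same stalk, Atp5h differed by 0.10 (95% interval -0.03 to 0.24) and Atp5pb by 0.05, each higher in 4 of 5 pairs, so members of 1 structure lay on both sides of 0.

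Of the 12 assembly factors, which help to build complexes I and II without staying in them, 9 were lower, with a median of -0.06. This median became 0.05 when arrays were weighted by how closely they followed the fit. Sdhaf1, which helps to insert iron-sulfur clusters into Sdhb, had the most positive difference of all members and is described because of that value. It read 8.98, 9.08, 8.91, 8.76 and 8.81 in OIL and 9.45, 9.49, 8.90, 9.04 and 9.28 in TAM, labels in the order 204, 206, F3, F3.1 and F3.2. TAM F3 was as low as its partner, while the other 4 TAM arrays exceeded theirs. The difference was 0.33 (95% interval 0.05 to 0.60), 25.3% more signal, with a limma adjusted p of 0.289 without and 0.0823 with the block. Its target Sdhb differed by -0.04.

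Genes around the chain were taken from lists of other pathway members. Of 34 further assembly factors tested, 26 were lower (median -0.07), as were 17 of 22 electron carriers and feeders (-0.06) and 11 of 17 genes of the tricarboxylic acid cycle (-0.05). Of 15 regulators of mitochondrial biogenesis, 7 were lower (0.00). No gene of these lists passed limma's adjusted threshold without or with the block. At an unadjusted p under 0.05, 5 did without the block, a smaller share than the 13% of all genes. By list it was 2 of the 34 assembly factors and 1 each of the 22 carriers and feeders, 17 cycle genes and 15 regulators. These 5 are named here after their values were seen. They were Uqcc2, a complex III assembly factor (-0.27, adjusted p = 0.177), Timmdc1, a complex I assembly factor (0.38, adjusted p = 0.269), cytochrome c itself, Cycs (0.17, adjusted p = 0.361), the mitochondrial helicase Twnk (0.20, adjusted p = 0.379) and pyruvate carboxylase, Pcx (-0.38, adjusted p = 0.235). The factors whose motifs were searched differed by -0.06 (Nrf1), -0.07 (Gabpa) and 0.03 (Yy1), with adjusted p values of 0.852, 0.680 and 0.906. Of the subunits encoded in mitochondrial DNA, 1 was measured, with a difference of -0.06.

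Beneath these group differences, the complexes varied by array. For each member the mean over its 10 arrays was subtracted, and the median over the members of a complex was taken per array. Complex I lay at 0.08 in OIL 204 and OIL 206 and at -0.11 in TAM F3.2, the lowest array. Complex II spanned the widest range among the complexes, from 0.21 in OIL 206 to -0.24 in TAM F3.2. The median over all genes stayed between -0.04 and 0.04. Paired by label, the complex I median difference was -0.06 in 204, -0.07 in 206, -0.02 in F3, -0.05 in F3.1 and -0.12 in F3.2, below 0 in each. For complexes IV and V, the F3 pair gave 0.03 and 0.01, and the other 4 pairs gave values below 0. The F3 pair had the smallest difference in complexes I, III, IV and V. TAM F3 is also the array with the highest granulocyte and monocyte marker sum, whose part in the result was not tested.

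**Figure D3:**
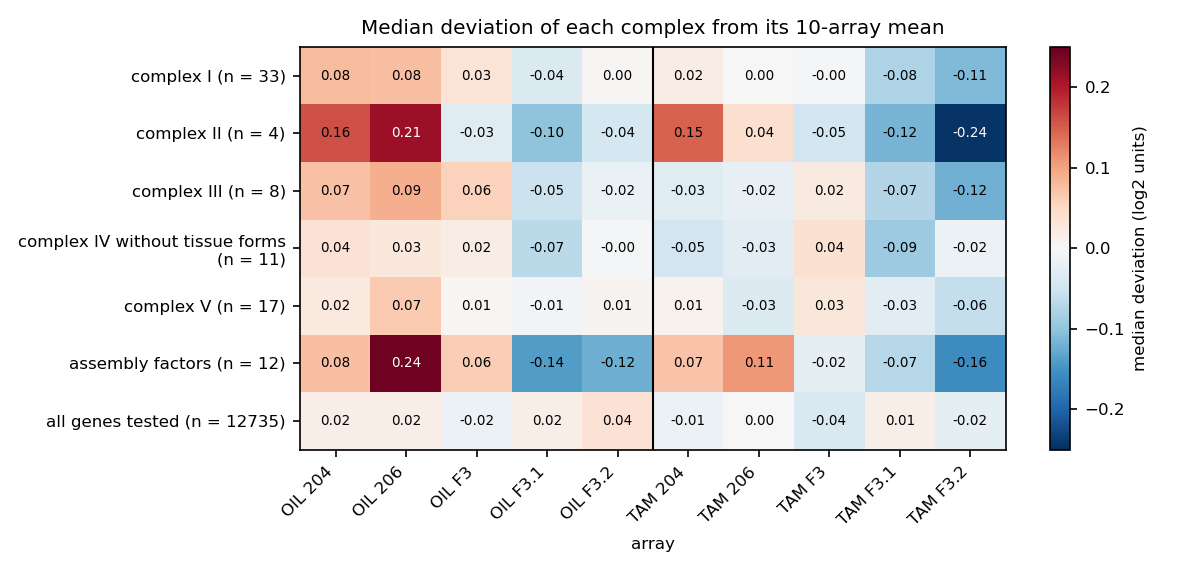
Median deviation of each complex (rows; complex IV without tissue forms and Ndufa4l2) from its members' 10-array means in every array (columns, OIL left and TAM right of the line), in log2 units given by colour and print. Within each treatment, the arrays labelled 204 and 206 lie above F3.1 and F3.2 in complexes I to III and the assembly factors, and TAM F3.2 is lowest at -0.24 in complex II, while all genes tested stay within 0.04 of 0.

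The second comparison set the labels 204 and 206 against F3, F3.1 and F3.2, because arrays were known from earlier results to separate by these sample names. The OIL and TAM array of each label were averaged first, so 2 label means were compared with 3. Of the 92 members tested, 2 passed limma's adjusted threshold, both higher in 204 and 206 (all genes 2.6%). At an unadjusted p under 0.05 it was 12 higher and 2 lower. Of all 12735 genes, 1303 were higher and 1035 lower at this threshold (18.4% in both directions together). A higher mean in 204 and 206 was found for 64 members (69.6%), where 48.9% of all genes had one. The granulocyte and monocyte marker sum was 341 to 650 in the 4 arrays of 204 and 206 and 534 to 2857 in the 6 others, and its part in these differences was not tested. All 4 arrays of 204 and 206 lay above all 6 of the others for 13 members (all genes 6.92%) and below for 4 (all genes 4.57%). Complex II stood at a median of 0.22 with 4 of 4 subunits higher, the assembly factors at 0.20 with 10 of 12, complex I at 0.09 with 26 of 33, and complex IV at -0.01 with 9 of 18.

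Cox6b2 differed most. It read 5.86 and 6.01 in the OIL arrays 204 and 206 and 6.16 and 6.34 in the TAM arrays. In F3, F3.1 and F3.2 it read 4.63, 4.44 and 4.58 in OIL and 4.46, 4.14 and 4.86 in TAM. The families did not overlap in either group, and the F3 family values lay about the limit for dim genes, so the difference of 1.57 (95% interval 1.21 to 1.93, limma adjusted p = 0.0116) is one between a low signal and one close to background and no exact size. It was called in every alternative fit. The common form Cox6b1 read 12.50 to 12.61 in the 4 arrays of 204 and 206 and 12.45 to 12.67 in the others.

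Ndufaf2, an assembly factor of complex I, read 8.17 and 8.17 in OIL 204 and 206, 8.44 and 8.21 in TAM, and between 7.24 and 7.76 in the 6 arrays of the F3 family. The difference was 0.64 (95% interval 0.38 to 0.90, limma adjusted p = 0.0431), or 1.56-fold. The call was lost in the OIL arrays alone (0.54, adjusted p = 0.0587), in the TAM arrays alone (0.75, adjusted p = 0.186) and when any 1 label was left out. Cox7a1, at 0.63 (adjusted p = 0.0953), and Sdhc, at 0.32 (adjusted p = 0.124), did not pass. With the 10 arrays fitted separately and treatment as a term, 9 members passed, but the arrays of a label are not independent. Both 206 arrays had the high stroma sums given above (691 and 1273), whereas the 204 arrays had 145 and 156, and the part of stroma in these differences was not tested.

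**Figure D4:**
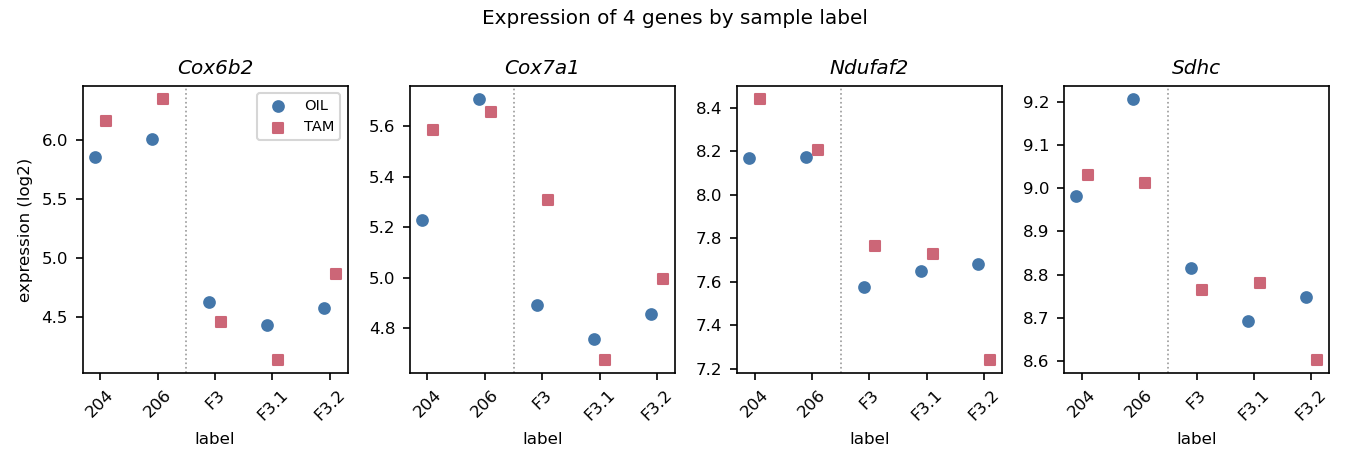
Expression (y axis, log2, a separate range per panel that does not start at 0) of Cox6b2, Cox7a1, Ndufaf2 and Sdhc by sample label, with circles for OIL and squares for TAM and a dotted line between 204 and 206 and the F3 family. Cox6b2 lies at 5.86 to 6.34 left of the line and 4.14 to 4.86 right of it in both treatments, and for Cox7a1 the families overlap, with TAM F3 at 5.31 above OIL 204 at 5.23.

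In the lists of other pathway genes, this comparison called 1 of 17 genes of the tricarboxylic acid cycle and 1 of 34 further assembly factors. It also called 1 of 15 regulators and 0 of 22 electron carriers and feeders, where 2.6% of all genes were called. The called genes were Idh2, an isocitrate dehydrogenase (1.80, limma adjusted p = 0.0122), Tfb1m, which modifies mitochondrial ribosomal RNA (0.83, adjusted p = 0.0332), and Nubpl, which supplies iron-sulfur clusters to complex I (0.77, adjusted p = 0.0340). All were higher in 204 and 206. Leaving out 1 label at a time ended the call of Nubpl and Tfb1m in 4 of 5 cases each.

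Whether TAM minus OIL itself differed between the label families was tested as an interaction. No member and no gene passed limma's adjusted threshold (0%). At an unadjusted p under 0.05 it was 0 members, where 2.72% of all genes passed. The median TAM minus OIL difference of the members was -0.07 in 204 and 206 and -0.04 in the F3 family. Complex I stood at -0.08 and -0.06, complex II at -0.12 and -0.06 and complex V at -0.10 and -0.03, while the assembly factors stood at -0.03 and -0.07. Opposite signs in the families were found for 26 of the 92 members and 4318 of the 12735 genes.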

How the data were processed

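Each array was deposited as log2 values that the authors obtained with RMA, per the submitters' processing notes, which give no version. RMA subtracts background, equalises array distributions and summarises probe sets, which removes shifts common to all genes. The table held 45101 probe sets, 34945 with 1 symbol in the platform annotation, 932 with several and 9211 with none listed. The number of arrays, 10, limits the precision. Of the members' probe sets, 185 were annotated to 1 symbol and 10 others shared ones were left out. The lowest 30% of genes by mean were not tested.

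Comparisons used limma 3.58.1 (R 4.3.3), with Benjamini-Hochberg adjustment over all genes tested. The fit had no block (8 residual degrees of freedom), and the replicate label as a block (4) was an alternative. F3.1 and F3.2 match between groups once a final number in the sample names is dropped. Arrays of a label deviated together, with correlations over genes of 0.76 (204), 0.75 (206), 0.80 (F3), 0.58 (F3.1) and 0.18 (F3.2), over the limit of 0.1. The highest correlation with an array of another label was also over this limit, at 0.39, 0.30, 0.29, 0.29 and 0.61 in that order. Only for F3.2 was it higher than the correlation within the label, so these values do not bear out the F3.2 pair.

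Named genes were, per complex, the 2 largest differences each way, a set of well-known subunits, tissue forms of complex IV and called genes. Ndufs3, Ndufs7, Ndufv2, Ndufa4, Sdhc, Sdhaf1, Cd2, Cd3e and the motif factors were named outside this rule, with their values seen. The members, the lists and tests were chosen with earlier results of these data known. Promoter sequences and names come from RefSeq (GRCm38.p6). The fit was tested on simulated data with known changes. Alternatives were the block as fixed or random term, filters, centring, quantile normalization, other probe set choices, array weights, a trended robust eBayes, and leaving out single arrays.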

Additional observations from a re-analysis of the deposited data

Results flagged for a closer look

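Among 84 sets of 5 arrays, each a named member in 1 group, 2 held an array far from the other 4 by Dixon's test (critical value 0.71), where chance gives about 1 in 20. Atp5a1 read 12.11 in TAM 204, with the next TAM array at 12.05. Uqcrc1 read 11.38 in OIL F3, with the next OIL array at 11.50.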

How the results depend on the processing

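No member was called in TAM minus OIL under any alternative except the label as a random term, which called 2. All genes called, 60, became 431 with the replicate block, 728 with it as a random term, 26 with the mean of all probe sets, 242 with array weights, 10 with OIL F3.1 and OIL F3.2 averaged, 8 to 54 leaving out 1 array, and 16 without the F3.2 pair, an alternative chosen after seeing the data. The pairing by label changed no other call among members. The medians of complexes I to V kept their sign, but some moved by over 1.5 times. Array weights gave -0.038 (I), -0.015 (II), -0.037 (III), -0.018 (V) and 0.047 for assembly factors, and the mean of all probe sets -0.038 (II) and -0.047 (IV). Without the F3.2 pair, complex III was at -0.023. Without TAM F3.2, complexes II, III and V were at -0.048, -0.032 and -0.024 and assembly factors at -0.0073. Complex II was at -0.046 without OIL 206 and -0.049 without OIL 204, and complex IV at -0.052 without OIL F3.1, -0.045 without OIL F3 and -0.047 without TAM F3. Complex V was at -0.030 without OIL 206 and -0.029 without TAM F3.1, and assembly factors at -0.016, -0.030 and -0.092 without OIL 206, TAM F3.1 and TAM 204. Between the label families, members called were 9 and all genes 1507 with 10 arrays and a treatment term, members 1 in OIL alone, members 1 and genes 87 in TAM alone, and members 1 to 1 and genes 107 to 535 leaving out 1 label.

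Members that were not called turned sign, most of them near 0 but also Uqcr10, at -0.13 on its brightest probe set. Leaving out 1 array gave -0.016 to 0.011 for Cox6a1, -0.018 to 0.019 for Cox7a2, -0.0030 to 0.028 for Uqcrc2, -0.048 to 0.077 for Cox8c, -0.045 to 0.011 for Cox8a, -0.085 to 0.012 for Sdhb, -0.10 to 0.028 for Sdhc, -0.010 to 0.022 for Atp5b, -0.021 to 0.10 for Cox6a2, -0.20 to 0.35 for Cox6b2 and -0.12 to 0.18 for Ndufaf2. Centring gave Cox6a1 0.0010 and quantile normalization Cox7a2 -0.0026. The mean of all probe sets gave Uqcrc2 -0.054, Uqcr10 0.029, Cox8c -0.047, Cox6a1 0.0016 and Cox8a 0.026, and probe sets without the suffixes _x_at and _s_at gave Atp5pb -0.0091. Array weights gave Sdhb 0.039, Sdhc 0.054, Atp5b -0.0055, Cox6a2 -0.0093 and Cox8c -0.010. Averaging OIL F3.1 and OIL F3.2 gave Uqcrc2 -0.0017, Cox6b2 -0.057, Ndufaf2 -0.021, Cox6a1 0.0047 and Cox7a2 -0.0084, and Cox8a was 0.0035 without the F3.2 pair. The causes were not tested. Cox6b2, Cox7a1 and Cox8b lie close to the limit for dim genes, where signal over background limits what their values can show.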
